A study of Mus musculus with 9 samples.

Results

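The luminal and basal keratins described here are 8 genes of the 19938 that had a named row on the arrays: Krt7, Krt8, Krt18 and Krt19, which mark the luminal cells of mammary ducts, and Krt5, Krt14, Krt15 and Krt17, which mark the basal layer. They were chosen by symbol, and each was measured by 1 row. RNA came from mammary gland cells of wild-type C3H females aged 8 to 9 weeks, labelled as epithelial cells, with 3 arrays in each of 3 groups. Untrypsinized cells had been freed from fat tissue with collagenase, trypsinized cells had a trypsin step after that, and mock sorted cells (Trypsinized+Mock FACS sorted) had collagenase, trypsin and a mock pass through a fluorescence-activated cell sorter. All groups share the strain, the collagenase release and the extraction kit. The 3 samples of a group are labelled biological replicates, with no animal named and no word on pooling. The p-values therefore reflect just the spread among these samples, which may be technical.

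Keratins are the intermediate filament proteins of epithelia. A filament forms from an acidic type I keratin (Krt14, Krt15, Krt17, Krt18 and Krt19 here) joined to a basic type II keratin (Krt5, Krt7 and Krt8). Mammary ducts have an inner luminal layer, rich in Krt8 and Krt18, and an outer basal or myoepithelial layer, rich in Krt5 and Krt14, so these genes are the usual labels of each layer. In the RefSeq gene order Krt18 is the neighbour of Krt8 in the cluster on chromosome 15, next to type II genes, while Krt19 neighbours Krt15 in the cluster on chromosome 11.

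The stretches of 60 bases before the transcription start show the proximal promoters of Krt7, Krt8 and Krt18, luminal genes whose arrays with trypsin all lay above those without it, and of basal Krt5 as their contrast. They come from RefSeq on GRCm38.p6, which had entries for 5 of the 8 genes. The Krt14 entry begins inside the gene and is not shown, and Krt15, Krt17 and Krt19 had none. Capitals mark the letters TATAA or ATAAA on the gene's strand, which overlap where both occur.
Krt18 (chr15:102028156-102028215, plus strand): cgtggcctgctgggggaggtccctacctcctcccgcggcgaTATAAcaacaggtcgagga
Krt8 (chr15:102004343-102004402, minus strand): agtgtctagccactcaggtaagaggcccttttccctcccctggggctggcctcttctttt
Krt7 (chr15:101412343-101412402, plus strand): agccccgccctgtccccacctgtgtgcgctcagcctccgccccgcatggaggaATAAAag
Krt5 (chr15:101712906-101712965, minus strand): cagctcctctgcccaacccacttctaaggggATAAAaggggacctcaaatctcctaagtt
TATAA occurs in the Krt18 stretch, and ATAAA occurs in those of Krt5 and Krt7. Neither occurs in the Krt8 stretch. Searched on the gene's strand, TATAA is in 5.57% and ATAAA in 7.48% of 32851 stretches of this length in the table. On either strand the shares are 7.24% and 11.8%. The matches are a description of the letters, and the arrays do not measure the promoters.

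Values are log2 of the deposited intensity plus 1, and levels of different genes were not compared, since each row has its own probes. Median intensity over all rows was 345 to 408 per array, and precision is limited by having 3 arrays a group. All 8 keratins were bright. Intensities were 14640 to 15749 for Krt8, 12072 to 13273 for Krt18, 12082 to 13042 for Krt19 and 6700 to 8171 for Krt5, Krt7, Krt14 and Krt17, while the brightest row of an array was at 19128 to 20372. Krt15 was dimmer, at 1491 to 1743. Whether rows near the top of the scale respond less than dim ones was not tested. Krt14, Krt16 and Krt17 are close paralogs, as are Krt6a and Krt6b, and how far their rows share signal was not tested either.

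The 4 luminal keratins held nearly the same level in every preparation. Krt8, the type II keratin of simple epithelia, was at 13.87, 13.90 and 13.84 in the untrypsinized arrays, 13.92, 13.92 and 13.94 in the trypsinized arrays and 13.94, 13.93 and 13.93 in the mock sorted arrays. Every array with trypsin lay above every array without it, by little. Krt18, its type I filament partner, was at 13.60, 13.60 and 13.56 in untrypsinized, 13.66, 13.67 and 13.66 in trypsinized and 13.70, 13.68 and 13.65 in mock sorted arrays. It showed the same order, with trypsinized and mock sorted arrays overlapping. Krt7, a type II keratin of ductal epithelia, was at 12.82, 12.85 and 12.81 in untrypsinized, 12.86, 12.95 and 12.90 in trypsinized and 12.93, 12.95 and 12.92 in mock sorted arrays. Its trypsinized arrays lay above the untrypsinized ones and overlapped the mock sorted ones. Krt19, a type I keratin without the usual tail domain, was at 13.60, 13.56 and 13.56 in untrypsinized, 13.59, 13.61 and 13.62 in trypsinized and 13.66, 13.63 and 13.67 in mock sorted arrays. Here the mock sorted arrays lay above all others, and the untrypsinized and trypsinized arrays overlapped.

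The 4 basal keratins were also close to flat. Krt5, the type II keratin of basal cells, was at 12.88, 12.79 and 12.83 in untrypsinized, 12.78, 12.83 and 12.80 in trypsinized and 12.72, 12.72 and 12.79 in mock sorted arrays. The groups overlapped, with the lowest values in mock sorted arrays. Krt14, its type I partner, was at 12.83, 12.77 and 12.77 in untrypsinized, 12.81, 12.82 and 12.81 in trypsinized and 12.71, 12.76 and 12.77 in mock sorted arrays. Its mock sorted arrays lay below all others, by less than the rounding against the lowest untrypsinized array. Krt17, a type I keratin also known to be induced by wounding, was at 12.94, 12.87 and 12.85 in untrypsinized, 12.94, 12.98 and 13.00 in trypsinized and 12.84, 12.89 and 12.90 in mock sorted arrays. The trypsinized arrays were the high ones, and those of the first and last step overlapped. Krt15, a type I keratin of basal keratinocytes, was at 10.77, 10.72 and 10.64 in untrypsinized, 10.57, 10.76 and 10.64 in trypsinized and 10.54, 10.63 and 10.65 in mock sorted arrays. It had the widest spread of the 8 genes and overlapped between all groups. From the lowest to the highest of the 9 arrays, the 8 genes spanned 0.105 to 0.225 on the log2 scale, with a median of 0.137, beside 0.359 over all genes and 0.176 over the 1994 brightest genes.

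**Figure D1:**
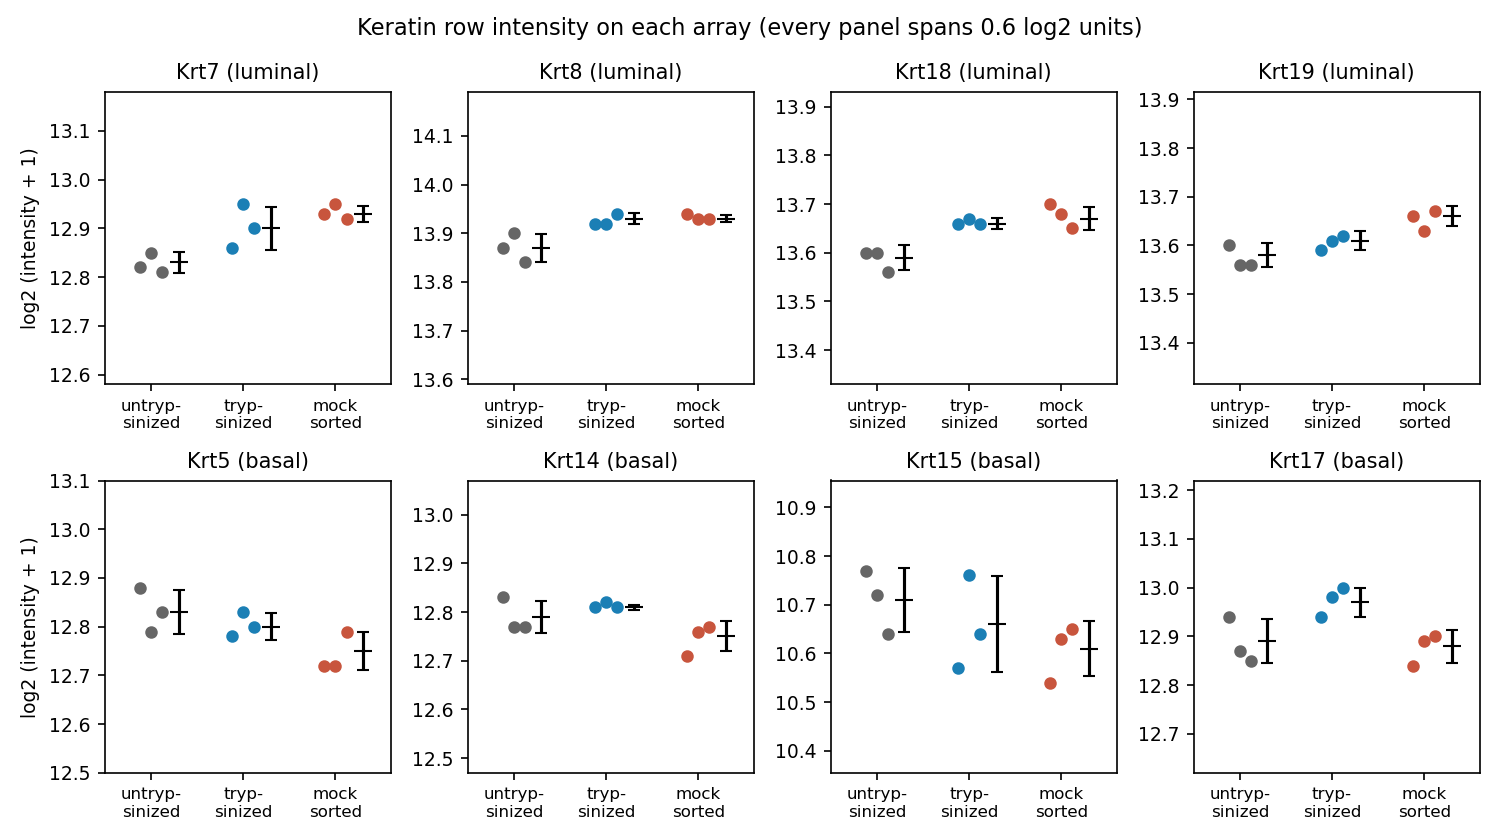
Each panel plots log2 of intensity plus 1 for 1 keratin on the 9 arrays, coloured by group, with the mean and SD of 3 arrays beside the points. Every panel spans the same log2 range, so the small size of the shifts in Krt7, Krt8, Krt18 and Krt19 and the overlap of groups in Krt5 and Krt15 can be compared by eye.

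Trypsinized cells were first set against untrypsinized cells, which addresses the trypsin step. None of the 8 keratins passed limma's test at an adjusted p of 0.05 and 1.5-fold, a rule that called 1.46% of all genes (0.532% higher and 0.933% lower), and none did without the minimum fold, where 25.4% of genes were called. None had an unadjusted limma p under 0.05, beside 39.7% of genes. The luminal keratins differed by 0.073 (Krt7, SE 0.035), 0.061 (Krt8, SE 0.032), 0.073 (Krt18, SE 0.032) and 0.030 (Krt19, SE 0.032) on the log2 scale, with limma adjusted p-values of 0.132 to 0.522. Of the basal keratins, Krt17 differed by 0.083 (SE 0.039, limma adjusted p = 0.145) and Krt14 by 0.021 (SE 0.034), while Krt5 differed by -0.031 (SE 0.039) and Krt15 by -0.050 (SE 0.060). The 95% intervals of all 8 differences lay within 1.139-fold in either direction. Higher trypsinized arrays without overlap were seen for 4 of 8 keratins (Krt7, Krt8, Krt17 and Krt18), beside 25% of genes, and 0 of 8 were lower in this way, beside 19.4%. The sign of most of these small differences depended on the scaling chosen. When each array was set to the same median row, the median gene differed by -0.09 in place of 0.04. The mean luminal difference was then -0.075 in place of 0.059. With quantile normalization the mean luminal difference was 0.052, and no keratin changed sign. The genes called split into 106 higher and 186 lower as deposited, 57 and 279 with quantile normalization and 55 and 376 with the same median row.

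Mock sorted cells were next set against trypsinized cells, which addresses the sorter passage. Again 0 of 8 keratins passed limma's adjusted p of 0.05 with or without the minimum fold, beside 1.19% and 4.67% of genes (1.17% and 4.2% in the lower direction). Only Krt17 had an unadjusted limma p under 0.05, beside 17.2% of genes. It was lower by -0.095 (SE 0.039, 95% interval -0.184 to -0.007, limma adjusted p = 0.252), and its mock sorted arrays lay below its trypsinized arrays without overlap. So did those of Krt14, at -0.069 (SE 0.034, limma adjusted p = 0.358), which makes 2 of 8 keratins beside 14.3% of genes. Krt5 differed by -0.056 (SE 0.039) and Krt15 by -0.050 (SE 0.060). The luminal keratins differed by 0.004 for Krt8, 0.011 for Krt18, 0.031 for Krt7 and 0.050 for Krt19 (SE 0.032 to 0.035). Krt19 was the member whose mock sorted arrays lay above its trypsinized arrays without overlap, beside 9.74% of genes. All 8 intervals lay within 1.139-fold.

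Mock sorted and untrypsinized cells differ by both steps, and this comparison shares its arrays with the others. No keratin passed both thresholds of limma's test, which called 4.47% of genes (1.08% higher and 3.4% lower). Without the minimum fold 1 of 8 passed, beside 39% of genes, and 3 of 8 had an unadjusted limma p under 0.05, beside 49.3%. That member was Krt7, higher by 0.104 (SE 0.035, 95% interval 0.023 to 0.186, limma adjusted p = 0.0472), or 1.075-fold. Over the 18 settings that gave an limma adjusted p for Krt7, the one reported included, it was at or below 0.05 in 7 and ranged from 0.00463 to 0.555. It was above 0.05 without any 1 of the untrypsinized or mock sorted arrays (0.0649 to 0.131), without trypsinized replicate 3 (0.0682) and with the replicate block (0.0539). Krt18 was at 0.084 (SE 0.032, limma adjusted p = 0.0708), Krt19 at 0.080 (SE 0.032, limma adjusted p = 0.0820) and Krt8 at 0.066 (SE 0.032, limma adjusted p = 0.129).

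In all 4 luminal keratins every mock sorted array lay above every untrypsinized array, beside 28.7% of genes, and 5 of 8 keratins had no overlap in either direction, beside 52.1%. The basal keratins were at -0.087 (Krt5, SE 0.039), -0.048 (Krt14, SE 0.034), -0.101 (Krt15, SE 0.060) and -0.012 (Krt17, SE 0.039), with limma adjusted p-values of 0.111 to 0.824. Krt14 was the basal keratin whose arrays did not overlap, beside 23.4% of genes lower in this way. All 8 intervals lay within 1.179-fold. With the same median row on each array the luminal differences turned to values between -0.084 and -0.045, and 3 basal keratins were lower with no minimum fold: Krt5 at -0.236, Krt14 at -0.197 and Krt15 at -0.250 (limma adjusted p = 0.0131, adjusted p = 0.0201 and adjusted p = 0.0366), where 6793 genes were lower and 1233 higher. Genes called split into 215 higher and 677 lower as deposited, 116 and 861 with quantile normalization and 92 and 1028 with the same median row. Relative to the median over all genes, which was 0.055 in the fit reported, Krt7 stood at 0.050, Krt8 at 0.011, Krt18 at 0.029 and Krt19 at 0.025, and Krt5 at -0.142, Krt14 at -0.102, Krt15 at -0.155 and Krt17 at -0.067.

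**Figure D2:**
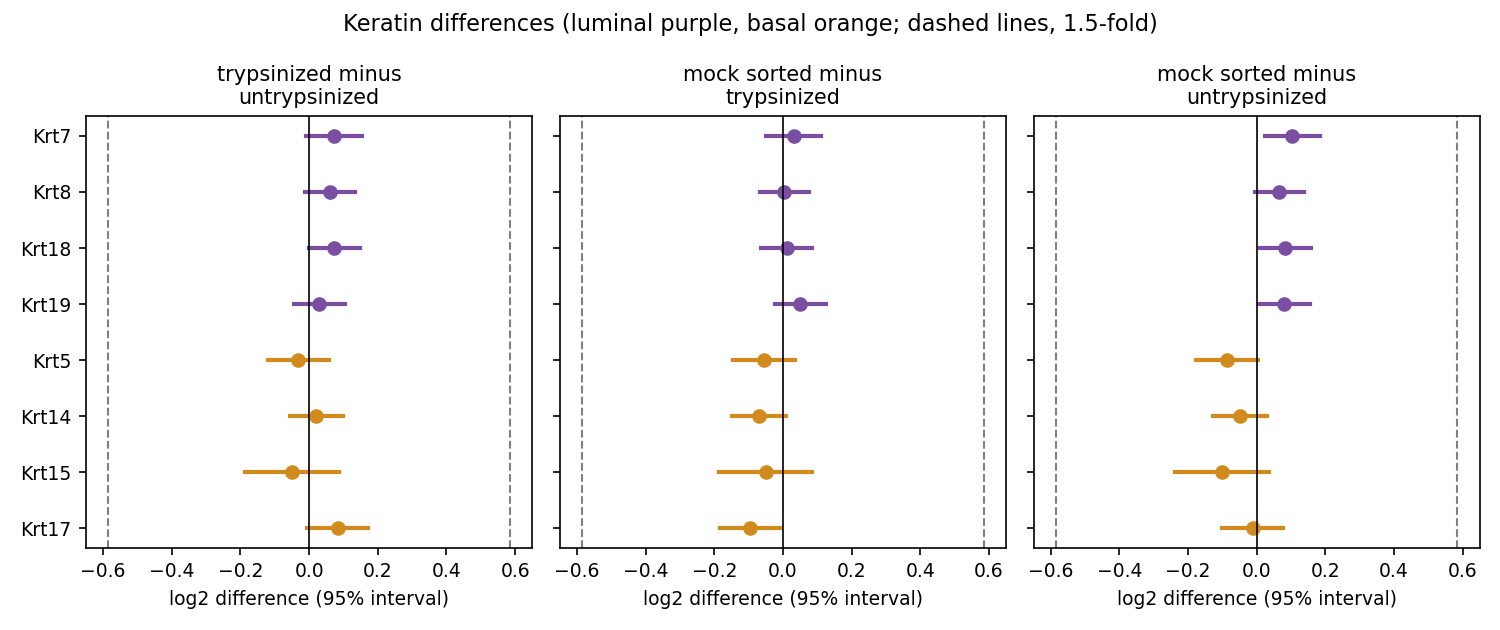
The 3 panels plot the log2 difference of each keratin between groups (points) with its 95% interval from limma (lines), luminal keratins in purple and basal keratins in orange. Every interval lies well inside the dashed lines at 1.5-fold.

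Luminal and basal keratins stood slightly further apart after each step. For each array the mean of the 4 luminal and of the 4 basal keratins was set against the untrypsinized means, and their difference was taken within the array, where a scaling that shifts a whole array cancels. It was -0.040, 0.030 and 0.010 in the untrypsinized arrays, 0.072, 0.029 and 0.059 in the trypsinized arrays and 0.194, 0.137 and 0.105 in the mock sorted arrays. The mock sorted arrays lay above the others, while trypsinized and untrypsinized arrays overlapped. The means were 0.054 ± 0.022 (SD, n = 3) in trypsinized and 0.145 ± 0.045 (SD, n = 3) in mock sorted arrays, the latter being 1.106-fold. The luminal mean was 0.084 ± 0.007 and the basal mean -0.062 ± 0.038 in mock sorted arrays (SD, n = 3). No test is given, because the genes were chosen with results of these arrays known.

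Between mock sorted and untrypsinized arrays the distance was 0.132 to 0.162 with any 1 keratin left out, and each luminal keratin lay above each basal keratin in all 16 luminal and basal pairs, by 0.078 to 0.205. The same held for 16 of 16 pairs between mock sorted and trypsinized arrays and for 12 of 16 pairs between trypsinized and untrypsinized arrays, where Krt17 was among the highest. With quantile normalization over all rows the distance between mock sorted and untrypsinized arrays was 0.130. Filament partners were then set against each other. The difference of Krt8 minus Krt18, set to 0 in untrypsinized arrays, was -0.011 ± 0.019 in trypsinized and -0.018 ± 0.018 in mock sorted arrays, and that of Krt5 minus Krt14 was -0.052 ± 0.023 and -0.039 ± 0.029 (SD, n = 3).

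**Figure D3:**
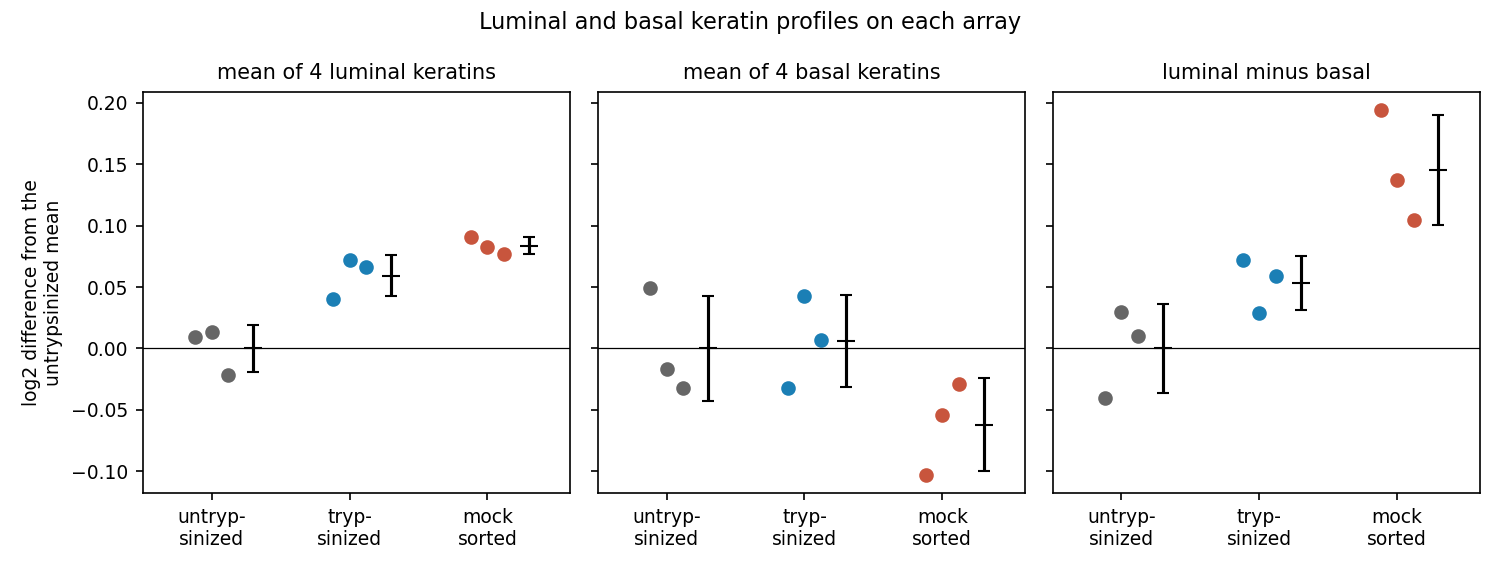
The panels plot, for each array, the mean of the luminal keratins, the mean of the basal keratins and the luminal minus basal distance, as log2 differences from the untrypsinized mean, with the mean and SD of 3 arrays beside the points. The luminal minus basal distance is 0.105 to 0.194 in mock sorted arrays and at most 0.072 on any other array.

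Other genes had profiles as shallow as these. Among 9941 genes with a level above the median that are not keratins, those nearest to the mean luminal profile over the 9 arrays were Rpp38, Tnpo2, Furin, Lasp1 and Gphn, with root mean square differences of 0.013 to 0.015 on the log2 scale, where the median gene was at 0.091. Krt7, Krt8, Krt18 and Krt19 themselves lay at 0.019, 0.013, 0.012 and 0.021 from that profile. Each keratin is part of the mean that forms its own profile, luminal or basal, so its distance is small partly by construction. Nearest to the mean basal profile were Xpot, Pus7, Gpc4, Rpain and Plcb3, at 0.016 to 0.027, while Krt5, Krt14, Krt15 and Krt17 lay at 0.023, 0.018, 0.042 and 0.035.

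The arrays held 44 other keratin genes, of which 24 had levels above 8.21, the 95th percentile of 1015 olfactory receptor genes, which served as a mark of dim signal. Between trypsinized and untrypsinized arrays 0 of 44 passed both thresholds, and 11 were higher and 0 lower at an limma adjusted p of 0.05 without the fold, beside 13.9% and 11.5% of genes. Those 11 became 3 or 4 without trypsinized replicate 3 or untrypsinized replicate 1 and 3 under quantile or common median scaling, and 6 or 7 without trypsinized replicate 1 or 2. Over all genes the 2766 higher became 1583 or 1559 without trypsinized replicate 3 or untrypsinized replicate 1. They became 1602 or 745 under quantile or common median scaling, and 1582 or 2196 without trypsinized replicate 1 or 2. Krt6a, a type II keratin induced in wounded and stressed epidermis, was at 11.89, 11.87 and 11.83 in untrypsinized, 12.30, 12.36 and 12.31 in trypsinized and 12.46, 12.47 and 12.42 in mock sorted arrays. Its groups did not overlap, and it lay next to Krt5 in the gene order. Its difference between trypsinized and untrypsinized arrays was 0.458 (SE 0.04, limma adjusted p = 0.000263), or 0.324 to 0.477 under the scalings, the block and each left-out array, with an limma adjusted p of at most 0.0038.

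Krt80, another type II keratin, was at 9.86, 9.86 and 9.80 in untrypsinized, 10.27, 10.22 and 10.28 in trypsinized and 10.23, 10.18 and 10.18 in mock sorted arrays. It stood higher after trypsin by 0.418 (limma adjusted p = 0.000392) and differed by -0.064 between mock sorted and trypsinized arrays (limma adjusted p = 0.426). Krt78 was at 9.36, 9.53 and 9.54, then 9.89, 9.83 and 9.90, then 10.04, 10.11 and 10.13 in the same order of groups. Its groups did not overlap either. Between mock sorted and untrypsinized arrays Krt78 was the single keratin called, higher by 0.614 (SE 0.06, limma adjusted p = 9.82e-05), and it missed 1.5-fold when untrypsinized replicate 1 was left out (0.555) or arrays had a common median (0.465). Krt6a was just under 1.5-fold, at 0.584 (SE 0.04, limma adjusted p = 1.03e-05). Over 13 settings, the one reported included, Krt78 passed both thresholds in 11, Krt6a in 4 and Krt16 in 2.

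Krt4, a type II keratin of mucosal epithelia, was at 10.47, 10.61 and 10.49 in untrypsinized, 10.62, 10.82 and 10.80 in trypsinized and 10.94, 11.04 and 11.07 in mock sorted arrays. Its mock sorted minus untrypsinized difference was 0.499 (SE 0.07, limma adjusted p = 0.000829). Krt87 and Krt77 differed by 0.33 (limma adjusted p = 0.00663) and 0.26 (limma adjusted p = 0.045), both type II. Krt77 was at or below an adjusted p of 0.05 in 4 of 13 settings (0.0185 to 0.306) and above it under both scalings and without untrypsinized replicate 1 or 2, mock sorted replicate 2 or 3, or any 1 trypsinized array. Krt16, the type I partner of Krt6a and a paralog of Krt14 and Krt17, was named after its values were seen. It was at 8.40, 8.53 and 8.42 in untrypsinized, 8.66, 9.03 and 8.89 in trypsinized and 8.80, 9.12 and 9.10 in mock sorted arrays, a difference of 0.555 over both steps (limma adjusted p = 0.00594).

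Over both steps 20 of the 44 other keratins were higher and 2 lower at an limma adjusted p of 0.05 without the fold, beside 21% and 18% of genes. Under quantile or common median scaling 9 were higher and 3 lower. Of all 19938 genes, 2569 were higher and 4527 lower with quantile normalization, and 1233 and 6793 with a common median. The lower ones, also named after their values were seen, were Krt23, a type I keratin, at -0.40 (limma adjusted p = 0.00381), and Krt10, the type I keratin of differentiating epidermis, at -0.18 (limma adjusted p = 0.0446). Krt10 was at or below 0.05 in 7 of 13 settings (0.00284 to 0.121) and above it without untrypsinized replicate 2 or 3, trypsinized replicate 1 or 3, or mock sorted replicate 1 or 2. Krt23 was at 9.55, 9.54 and 9.29 in untrypsinized, 9.16, 9.31 and 9.25 in trypsinized and 9.05, 9.05 and 9.09 in mock sorted arrays. Its mock sorted arrays lay below all others. Between mock sorted and trypsinized arrays 0 of 44 passed at an limma adjusted p of 0.05. The median difference over both steps was 0.23 for the other keratins, 0.082 for the luminal and -0.067 for the basal ones, and 0.055 over all genes. The luminal and basal means were 0.084 and -0.062 in that fit. With quantile normalization the median of the other keratins was 0.065, no longer above the luminal mean of 0.077. The basal mean was -0.053 there. With a common median, which shifts every gene of an array alike, the other keratins were at 0.076. The luminal and basal means were then -0.066 and -0.211, so the distances were kept.

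**Figure D4:**
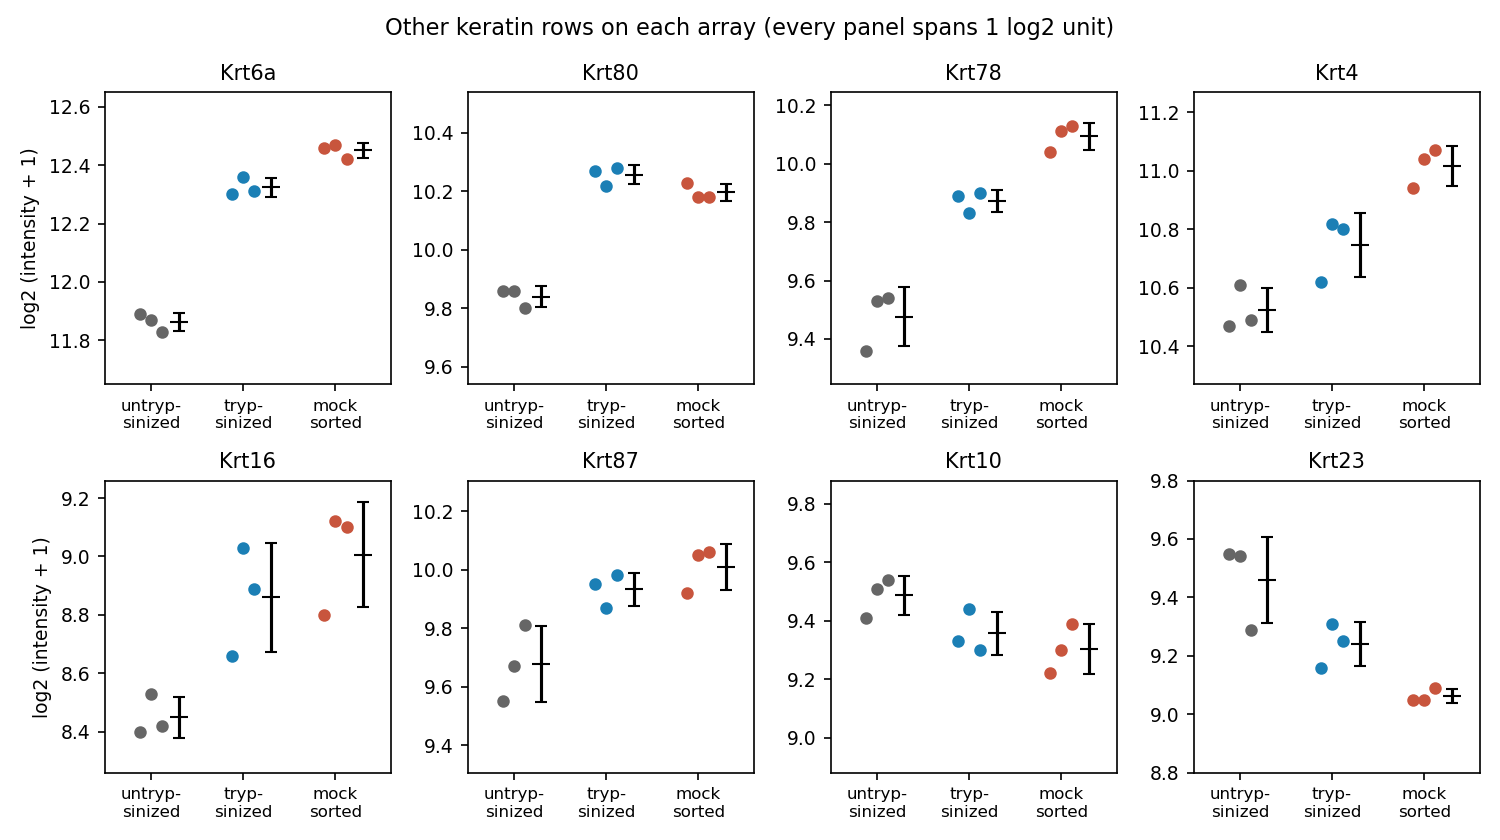
Each panel plots log2 of intensity plus 1 for 1 other keratin on the 9 arrays, with the mean and SD of 3 arrays beside the points, and every panel spans 1 log2 unit. Krt6a, Krt78 and Krt4 are higher in mock sorted than in untrypsinized arrays without overlap, Krt80 is higher in all arrays with trypsin, and Krt23 is lowest in mock sorted arrays.

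Genes for proteins that tie keratin filaments to desmosomes and hemidesmosomes stood higher after trypsin, each by less than 1.5-fold. Of the 10 listed, 0 passed both thresholds between trypsinized and untrypsinized arrays, and 9 were higher at an limma adjusted p of 0.05 without the fold, beside 13.9% of genes. The median difference was 0.375, beside 0.04 over all genes. Dsp, desmoplakin, which anchors keratins to desmosomes, was higher by 0.43 (SE 0.03, limma adjusted p = 0.000332), Ppl, periplakin, by 0.47 (SE 0.04, limma adjusted p = 0.000528) and Eppk1, epiplakin, which binds keratin networks, by 0.49 (SE 0.05, limma adjusted p = 0.000548). The 9 were 9 without any 1 array and with quantile normalization, and 7 with a common median. Over all 19938 genes 1602 were higher with quantile normalization and 745 with a common median. Over both steps Eppk1 rose past both thresholds, by 0.66 (SE 0.05, limma adjusted p = 2.33e-05), and 9 of 10 were higher without the fold, beside 21% of genes. Eppk1 missed 1.5-fold with quantile normalization (0.58) and with a common median (0.515). None of the 10 passed between mock sorted and trypsinized arrays, where their median was 0.06.

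Other markers of each mammary layer were read beside the keratins. Of 19 measured luminal markers that are not keratins, 11 were higher after trypsin and 17 higher over both steps at an limma adjusted p of 0.05 without the fold, beside 13.9% and 21% of genes, and 0 and 1 were lower, beside 11.5% and 18%. With a common median 2 and 4 were higher and 2 and 1 lower, where 745 and 1233 of 19938 genes were higher and 5664 and 6793 lower. Relative to the median over all genes, the median of these markers was 0.128 after trypsin and 0.126 over both steps, each the same with that scaling and without it. Cdh1, the epithelial cadherin, was higher over both steps by 0.29 (SE 0.03, limma adjusted p = 0.000273), and Pgr, the progesterone receptor of hormone-sensing luminal cells, by 0.37 (SE 0.05, limma adjusted p = 0.000527). Of 12 basal markers 8 were lower and 1 higher over both steps without the fold, beside 18% and 21% of genes. With a common median 11 were lower and 0 higher, where 6793 of 19938 genes were lower. Mylk, the myosin light chain kinase of contractile cells, fell by 0.77 (SE 0.05, limma adjusted p = 1.11e-05) and was the single basal marker past both thresholds. Oxtr, the oxytocin receptor, differed by -0.38 (SE 0.04, limma adjusted p = 0.000192) and Trp63, a transcription factor of basal cells that was named after its values were seen, by -0.20. Acta2, Cnn1, Myh11, Mylk and Tagln of this list are also expressed by vascular mural cells.

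Markers of other cell types differed between these groups, not all in the same direction. Over both steps 10 of 10 endothelial markers fell past both thresholds, beside 3.4% of genes, at a median of -1.61, and their summed intensity was 29687 to 34224 in untrypsinized, 23057 to 23469 in trypsinized and 10242 to 12486 in mock sorted arrays. Of 8 mural markers 5 fell past both thresholds, beside 3.4% of genes, and 8 were lower without the fold, beside 18%. Their sums were 13927 to 15517, 11028 to 11573 and 6348 to 7120. For fibroblasts 1 of 10 fell past both thresholds and 8 of 10 were lower without the fold, beside 18% of genes, with sums of 37056 to 41185, 33139 to 37015 and 30770 to 33953. Of 7 adipocyte markers 3 fell past both thresholds (Fabp4, Car3 and Aqp7), beside 3.4% of genes. Without the fold 4 were lower, beside 18%. Adipoq, Plin1 and Lep differed by 0.018, 0.077 and 0.188 and Cidec by -0.241. Adipoq and Lep were not above 8.21, the mark of dim signal. Of 5 Schwann cell markers 3 fell past both thresholds (Cdh19, Gjc3 and Mbp), beside 3.4% of genes. By their mean over the 9 arrays Cdh19 and Gjc3 were not above that mark. In untrypsinized arrays they averaged 9.12 and 9.33, above it, and in mock sorted arrays 6.21 and 6.9. Sox10 and Ngfr were higher without the fold, by 0.191 and 0.243. Of 9 myeloid markers 1 fell past both thresholds, beside 3.4% of genes, and 4 were lower without the fold, beside 18%. Of 8 lymphocyte markers 1 rose, beside 1.08% of genes, and they had sums of 3069 to 3560, 5159 to 12861 and 4667 to 10990. The summed intensity of the luminal keratins was 45992 to 47168, 48148 to 48967 and 49216 to 49754 in the same order, and that of the basal keratins 23269 to 24426, 23565 to 24342 and 22268 to 23325. In these bulk samples fewer cells of a type and less RNA per cell cannot be told apart, and the part of other cell types in the keratin differences was not tested. Of 12 measured epidermal differentiation genes, 7 lay at or below 8.21 on the log2 scale (Krt2, Lor, Ivl, Flg2, Krtdap, Calm4 and Calm5) and 5 above it (Krt1, Krt10, Sbsn, Asprv1 and Cdsn), and 0 of 12 passed both thresholds in any comparison.

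**Figure D5:**
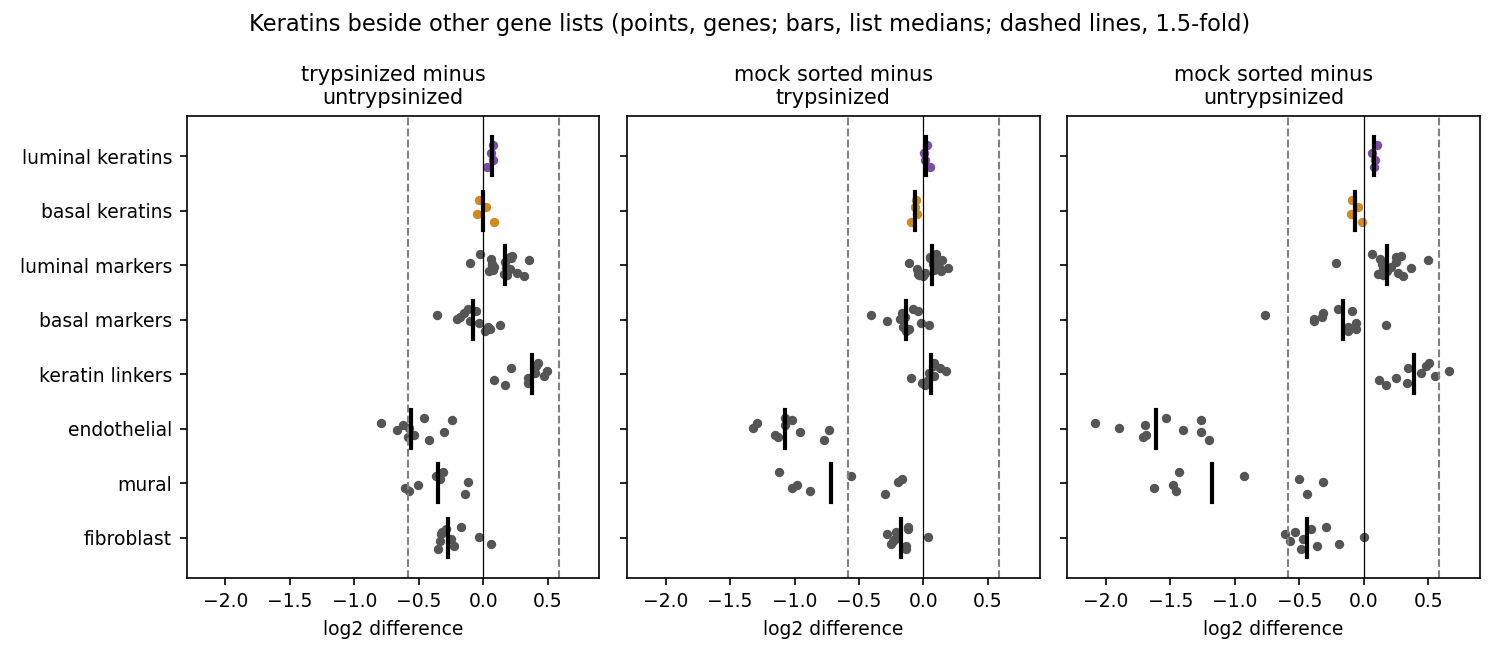
Points are log2 differences of single genes between groups, by gene list, with list medians as bars and 1.5-fold as dashed lines. Luminal and basal keratins cluster near 0 in all 3 panels, keratin linker genes lie to the right in the panels against untrypsinized cells, and endothelial genes lie to the left, at a median of -1.61 over both steps.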

How the data were processed

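RNA of 9 samples was measured on Affymetrix whole-transcript arrays after biotin labelling, per the labels. The authors deposited linear intensity values in 35512 rows. How background, probe summary and scaling were handled is not given in sources used here. Rows were named through the platform annotation: 21789 had 1 symbol, 1621 several and 12102 none. Symbols of 21698 rows were updated by gene number (RefSeq, GRCm38.p6). The highest-mean row stood for each gene. Intensities were tested as log2 of the value plus 1, with limma 3.58.1 (R 4.3.3), a mean per group over 9 arrays, and Benjamini-Hochberg adjustment over 19938 genes. Calls needed an adjusted p of at most 0.05 and 1.5-fold. Both numbers are the submitters', who name no adjustment. The fit was tested on simulated data.

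The keratins and gene lists were chosen with earlier results of these data known. Named genes are all members, other keratins that were called or among the 6 brightest, and up to 3 genes per list with the smallest p. Exceptions are marked in the text.

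Same-numbered trypsinized and mock sorted arrays deviated together (correlations over genes of 0.529, 0.285 and 0.292), so the numbers were taken to pair them. This pairing comes from the values. The reported SEs, intervals and p-values come from the fit without it, and the replicate block was used only as an alternative setting. With untrypsinized arrays, not every same-numbered pair was over 0.1 (trypsinized 0.110, 0.0375 and -0.0449, mock sorted 0.325, 0.180 and 0.0634). A pairing with untrypsinized arrays was therefore not taken as established, yet replicate block values against those arrays rest on it. Alternatives covered scaling, pseudocount, dim genes, rows, variance model, arrays fitted, the replicate block, thresholds and each array left out. Counts without a minimum fold under those settings were added after seeing the data.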

Additional observations from a re-analysis of the deposited data

How the results depend on the processing

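No keratin of the 8 passed both thresholds under any setting tried. Without the minimum fold the genes called numbered 5055 after trypsin, 931 for mock sorted against trypsinized arrays and 7777 over both steps, and 1 keratin, Krt7, was called over both steps at 0.104. With arrays set to a common median, differences turned negative after trypsin for Krt7 (-0.061), Krt8 (-0.073), Krt18 (-0.061), Krt19 (-0.104), Krt14 (-0.113) and Krt17 (-0.051), between mock sorted and trypsinized arrays for Krt8 (-0.011) and Krt18 (-0.0042), and over both steps for Krt7 (-0.045), Krt8 (-0.084), Krt18 (-0.065) and Krt19 (-0.069). That setting shifts every gene of an array alike. Leaving out 1 array gave 257 to 332, 214 to 281 and 857 to 957 genes called, and turned the sign of Krt17 over both steps (-0.030 to 0.013), and of Krt15 (-0.095 to 0.0020) and Krt18 (-0.0004 to 0.024) between mock sorted and trypsinized arrays. The luminal minus basal distance was 0.034 to 0.068, 0.068 to 0.112 and 0.121 to 0.166 without 1 array. The other keratins past adjusted p after trypsin numbered 4 with quantile normalization, 5 with a common median and 3 to 10 without 1 array. Over both steps they numbered 12 under either scaling and 15 to 24 without 1 array, and between mock sorted and trypsinized arrays 1 under either scaling or the replicate block and 0 to 1 without 1 array. The cause was not tested. With the replicate block 378, 240 and 954 genes were called, and 0 of 8 keratins were called without the minimum fold (Krt7 over both steps at an adjusted p of 0.0539).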

Other observations

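Of 13 other intermediate filament genes measured, Des (desmin, of muscle and mural cells) fell by 1.48 on the log2 scale over both steps (SE 0.09, limma adjusted p = 1.07e-05) and Nes (nestin) by 0.69 (SE 0.05, limma adjusted p = 4.38e-05), which are the members past both thresholds. Vim, vimentin of mesenchymal cells, differed by -0.32 (SE 0.04, limma adjusted p = 0.000337). Without the fold 4 were higher and 5 lower over both steps, beside 21% and 18% of all genes.

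Of 15 regulators of epithelial genes, 0 passed both thresholds, and 11 were higher and 2 lower over both steps at an limma adjusted p of 0.05 without the fold, beside 21% and 18% of all genes. Ehf, Elf3 and Elf5 were also counted among the luminal markers above, and Trp63 among the basal markers. The 2 lower ones were Elf5 (-0.212) and Trp63 (-0.202). Ovol1, a zinc finger repressor, differed by 0.53 (SE 0.05, limma adjusted p = 0.000152), Tfap2a, an AP-2 factor, by 0.30 (SE 0.04, limma adjusted p = 0.000508) and Elf3, an ETS factor of simple epithelia, by 0.50 (SE 0.06, limma adjusted p = 0.000562). Fam83h, which organises keratin filaments, was higher after trypsin by 0.27 (SE 0.04, limma adjusted p = 0.00499). With quantile normalization 10 of the 15 regulators were higher and 2 lower over both steps, and with a common median 4 and 3. Of the 13 filament genes 3 were higher and 6 lower with quantile normalization, and 1 and 6 with a common median. Over all 19938 genes 2569 were higher and 4527 lower with quantile normalization, and 1233 and 6793 with a common median.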
